A study of Mus musculus with 4 samples.

Results

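The Cyp2c cluster enzymes described here are 10 mouse liver cytochrome P450 genes, Cyp2c29, Cyp2c37, Cyp2c38, Cyp2c39, Cyp2c40, Cyp2c50, Cyp2c54, Cyp2c67, Cyp2c68 and Cyp2c70. They were chosen by name from the 25239 genes listed in the count tables, compared between livers given a plant extract and control livers, and read both as levels and as shares of their summed counts. All 10 passed the filter on low counts. The files hold 5 more genes named Cyp2c, namely Cyp2c23, Cyp2c55, Cyp2c65, Cyp2c66 and Cyp2c69, which are given only where a result turns on them.

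Livers came from C57BL/6 mice aged 6 to 8 weeks. The extract group received Gynura segetum, a medicinal plant that contains pyrrolizidine alkaloids, at 30 g/kg per day by stomach tube for 3 weeks, from a preparation of 2 g/mL. The control group received saline over the same 3 weeks. Levels are given in CPM, counts scaled to library size by the TMM method. Each group has 2 libraries of total liver RNA, with 40013188 and 45754235 counts on genes in the extract livers and 49711750 and 32215268 in the control livers. The labels give no sex and do not say that libraries come from separate mice, so a p-value here speaks only of the scatter among these 4 samples, which may be technical in origin.

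Cytochrome P450 enzymes of the Cyp2c family sit in the endoplasmic reticulum membrane, carry a haem group and take electrons from the reductase encoded by Por. In liver they oxidise drugs, steroids and bile acids, and several turn arachidonic acid into epoxides or hydroxylated fatty acids that act as local signals. Hepatocytes hold most of them, under control of Hnf4a, of the xenobiotic receptors Nr1i3 (CAR) and Nr1i2 (PXR), and, for some members, of growth hormone through Stat5b. In a bulk sample, fewer cells of a type and less RNA per cell cannot be told apart.

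Cyp2c40, an arachidonic acid hydroxylase, fell 3.65-fold, and it was the only member past the threshold of an adjusted p of 0.05 in edgeR's quasi-likelihood test. No member passed as higher. Thus 1 of 10 was lower, where 3.63% of the 13963 genes tested were lower, and 0 of 10 were higher, where 4.91% of all genes were. At an unadjusted p under 0.05, 5 members were lower and 0 higher, against 11.2% and 12.3% of all genes. In 6 members (Cyp2c29, Cyp2c37, Cyp2c39, Cyp2c40, Cyp2c67 and Cyp2c68) both extract libraries lay below both control libraries, where 26.7% of all genes did. In 0 members did both lie above, where 27.6% of all genes did. With DESeq2, 4 members (Cyp2c37, Cyp2c40, Cyp2c67 and Cyp2c68) were lower and 0 higher, against 6.58% and 7.41% of all genes. The median log2 fold change was -0.48 over the 10 members and -0.0047 over all genes tested.

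**Figure D1:**
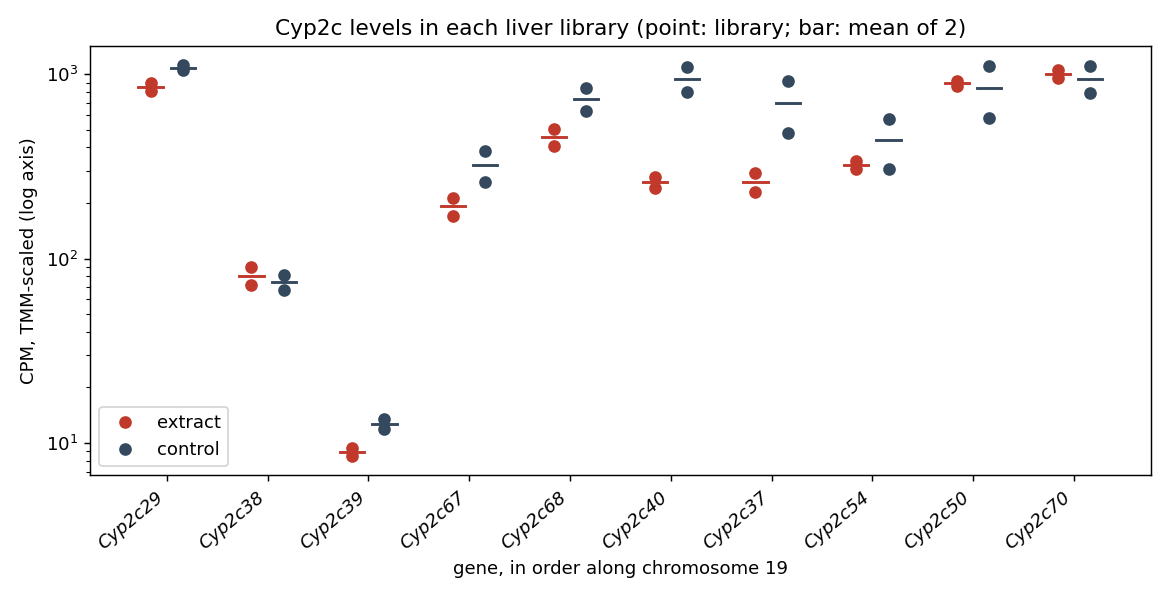
Level of each of the 10 genes in each library, in TMM-scaled CPM on a log axis, with genes in order along chromosome 19. Points are libraries and bars are means of 2. The extract points of Cyp2c40, at 241.7 and 275.9 CPM, lie below the control points, at 799.8 and 1091 CPM, while the points of Cyp2c70 overlap.

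The cluster lies on chromosome 19 (GRCm38, the assembly also called mm10), where 14 genes named Cyp2c span 39007019 to 40187333, or 1180 kb. Every member has 9 exons. The coding sequences fell into groups of close copies, defined here as an identity of at least 90%, a limit chosen after the identities were seen. Cyp2c38 and Cyp2c39 shared 94.2% of aligned coding bases. Cyp2c37, Cyp2c50 and Cyp2c54 shared 95.1% to 96.1%. Cyp2c40, Cyp2c67 and Cyp2c68 formed a group with Cyp2c69, at 92.2% to 97.7%. Cyp2c29 and Cyp2c70 had no such copy, but Cyp2c29 came just under the limit, at 89.5% with Cyp2c39 and 89.1% with Cyp2c38. The members are described below in these groups.

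The start regions of 5 members are shown, namely Cyp2c40, the member that passed the test, Cyp2c37 and Cyp2c50, close copies with different values, and Cyp2c29 and Cyp2c70, which have no close copy. They come from the RefSeq promoter table on GRCm38.p6 and read 5′ to 3′ on the gene's strand. Capitals mark CAAAGT, a half-element of the kind bound by Hnf4a, a hepatocyte nuclear receptor. The stretches cover 171 to 42 bases before the start in Cyp2c29, 177 to 48 in Cyp2c70 and 130 to 1 in the others. A further Cyp2c29 copy, 45 to 40 bases before the start, is cut by the end of its stretch and is not marked. A further Cyp2c37 copy, 184 to 179 bases before the start, lies outside its stretch. The stretches are chr19:39286914-39287043 (plus strand) for Cyp2c29, chr19:39992294-39992423 (plus) for Cyp2c37, chr19:40089549-40089678 (plus) for Cyp2c50, chr19:39812815-39812944 (minus) for Cyp2c40 and chr19:40187334-40187463 (minus) for Cyp2c70.
Cyp2c29: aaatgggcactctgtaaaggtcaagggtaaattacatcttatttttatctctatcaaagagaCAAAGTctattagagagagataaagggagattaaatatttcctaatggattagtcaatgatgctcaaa
Cyp2c37: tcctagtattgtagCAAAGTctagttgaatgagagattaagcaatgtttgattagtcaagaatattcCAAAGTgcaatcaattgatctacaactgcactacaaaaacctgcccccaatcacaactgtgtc
Cyp2c50: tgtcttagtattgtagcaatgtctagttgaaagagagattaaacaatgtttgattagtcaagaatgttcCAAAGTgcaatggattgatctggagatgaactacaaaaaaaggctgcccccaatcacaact
Cyp2c40: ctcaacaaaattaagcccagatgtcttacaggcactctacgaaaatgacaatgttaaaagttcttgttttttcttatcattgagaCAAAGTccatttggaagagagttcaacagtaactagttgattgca
Cyp2c70: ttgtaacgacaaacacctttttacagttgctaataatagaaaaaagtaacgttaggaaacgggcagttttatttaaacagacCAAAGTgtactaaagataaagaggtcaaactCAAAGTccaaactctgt

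CAAAGT, searched on both strands in the 250 bases before the start, occurred in all 9 members matched to the table by symbol (all but Cyp2c54), against 12.6% of 32851 promoter windows of that length. The element was chosen after the sequences were seen, and close copies share it by descent, so the count is a description. The other motifs searched on both strands were AGGTCA, a nuclear receptor half-site (3 members and 14.0% of all windows), GTTAAT, a half-site of Hnf1 (2 members and 6.43%), TTGCNNAA, a C/EBP type (2 members and 9.56%), TATAAA (4 members and 12.4%) and TGTTTAC, a FoxA type (2 members and 3.17%). AGGTCA and CAAAGT can overlap by their shared CA. The shown stretches of Cyp2c37 and Cyp2c50 shared 83.0% of aligned bases, with 2 copies of CAAAGT in Cyp2c37 and 1 in Cyp2c50. A match is not a bound site, and no binding was measured.

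In the group of Cyp2c40, Cyp2c67 and Cyp2c68, every member was lower in both extract libraries than in both control libraries. Cyp2c40 (chr19, 39767071 to 39812814, minus strand) had 10426 and 13146 counts in extract livers, against 38366 and 32414 in control livers. Scaled, this was 241.7 and 275.9 CPM in extract livers, against 799.8 and 1091 CPM in control livers. The groups were far apart compared with the spread inside each (258.8 ± 24.2 CPM in extract and 945.4 ± 206.0 CPM in control, SD, n = 2 libraries each). The log2 fold change was -1.87 (SE 0.20, edgeR adjusted p = 0.00341).

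Cyp2c68 (39688834 to 39741054, minus strand) had 407.3 and 502.9 CPM in extract livers, against 627.8 and 836.1 CPM in control livers. Its log2 fold change of -0.69 (SE 0.20) missed the threshold, with an edgeR adjusted p of 0.0875. Cyp2c67 (39608842 to 39649051, minus strand) had 169.5 and 213.7 CPM in extract livers, against 260.2 and 383.5 CPM in control livers. Its log2 fold change was -0.75 (SE 0.22, edgeR adjusted p = 0.100), also short of the threshold although the libraries did not overlap. With each library left out in turn, both log2 fold changes stayed negative. Without control replicates 1 and 2 they were -1.002 and -0.439 for Cyp2c67, and -0.878 and -0.462 for Cyp2c68. Without extract replicates 1 and 2 they were -0.604 and -0.949 for Cyp2c67, and -0.554 and -0.869 for Cyp2c68. Each such fit leaves 1 library in a group, so only the size of the change is given. The close copy Cyp2c69, next to Cyp2c40 on the chromosome and not among the 10, had 185.6 and 228.8 CPM in extract livers, against 737.2 and 1860 CPM in control livers. It fell 6.27-fold (log2 fold change -2.65, SE 0.49, edgeR adjusted p = 0.0457), and its control libraries differed 2.52-fold from each other. The call of Cyp2c69 was lost without extract replicate 1 (log2 fold change -2.52, edgeR adjusted p = 0.380) and without extract replicate 2 (-2.83, edgeR adjusted p = 0.309), where 0.929% and 1.17% of all genes were called lower. It was also lost with no filter on low counts (-2.64, edgeR adjusted p = 0.189).

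Reads from close copies can be lost from unique counting or assigned to the wrong copy. Of the 50-base windows along its annotated transcript, Cyp2c40 had 27.9% found in no other gene, the lowest of the 10, and it shared 42.1% with Cyp2c69. At 100 bases the unique share of Cyp2c40 was 55.9%. The read length is not given in the sources used here. Alignments without a unique place took 5.18% and 5.33% of records in extract libraries, against 6.70% and 9.03% in control libraries, and their part in the results of these genes was not tested. The summed level of the 4 copies, which does not depend on how reads are split among them but still misses those without a unique place, was 1004 and 1221 CPM in extract livers, against 2425 and 4171 CPM in control livers. The log2 ratio of the group means was -1.57, and the libraries did not overlap.

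**Figure D2:**
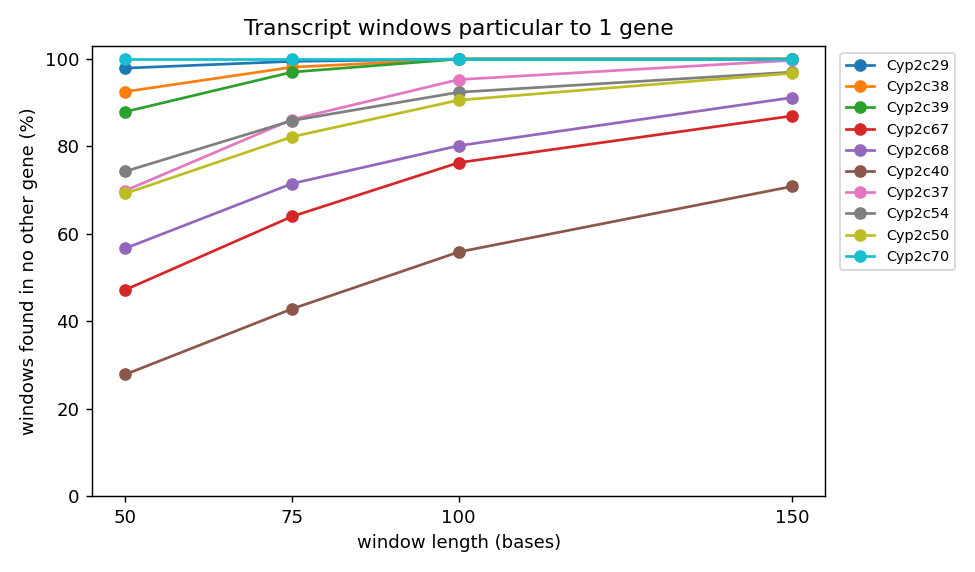
Percent of transcript windows found in no other gene (vertical axis) for window lengths from 50 to 150 bases (horizontal axis), 1 line per gene. Cyp2c70 stays at 100%, and Cyp2c40 is lowest at each length, from 27.9% at 50 bases to 70.9% at 150 bases.

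Cyp2c37, Cyp2c50 and Cyp2c54, whose mouse enzymes oxidise arachidonic acid, had different values. Cyp2c37 (39992424 to 40012243, plus strand) had 230.5 and 291.1 CPM in extract livers, against 480.2 and 914.1 CPM in control livers. The groups did not overlap, and the control libraries differed 1.90-fold from each other. Its log2 fold change of -1.42 (SE 0.32) was just short of the threshold, with an edgeR adjusted p of 0.0544. That log2 fold change was -1.81 and -0.88 without control replicates 1 and 2, and -1.28 and -1.62 without extract replicates 1 and 2.

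Cyp2c50 (40089688 to 40113950, plus strand) had 857.1 and 922.3 CPM in extract livers, against 579.6 and 1108 CPM in control livers. The extract libraries lay inside the control range, with a log2 fold change of 0.08 (SE 0.30, edgeR adjusted p = 0.917). It was -0.32 without control replicate 1 and 0.62 without control replicate 2, the second with an edgeR adjusted p of 0.00623. Cyp2c54 (40037940 to 40073827, minus strand) had 304.4 and 339.1 CPM in extract livers, against 307.3 and 570.3 CPM in control livers. The groups overlapped, with a log2 fold change of -0.45 (SE 0.29, edgeR adjusted p = 0.430). Without control replicate 1 it was -0.83 (edgeR adjusted p = 4.39e-05), and without control replicate 2 it was 0.07. The 2 control libraries differed 1.91-fold in Cyp2c50 and 1.86-fold in Cyp2c54, while the extract libraries differed 1.08-fold and 1.11-fold.

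Within this group, the shares lay closer between replicates than the levels did. Cyp2c37 took 16.6% and 18.7% of the summed counts of the 3 genes in extract livers, against 35.1% and 35.3% in control livers. Cyp2c50 took 61.6% and 59.4% in extract livers, against 42.4% and 42.7% in control livers. Cyp2c54 took 21.9% and 21.8% in extract livers, against 22.5% and 22.0% in control livers, a difference of -0.39 percentage points. The difference of extract minus control was -17.5 points for Cyp2c37 and 17.9 points for Cyp2c50. In an exact two-sided permutation test each of the 3 shares had p = 0.333, the smallest that 2 against 2 libraries allow.

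**Figure D3:**
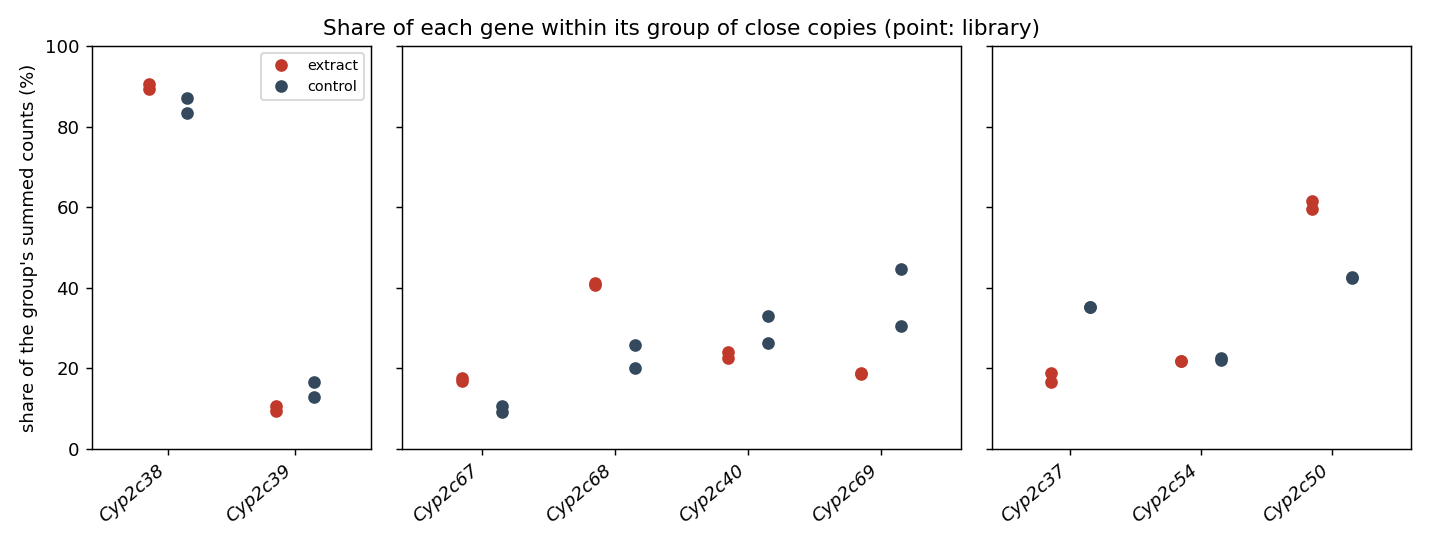
Share of each gene in the summed counts of its group of close copies, in percent, with 1 point per library and extract left of control. Cyp2c37 lies at 16.6% and 18.7% in extract and at 35.1% and 35.3% in control, and Cyp2c50 at 61.6% and 59.4% in extract and at 42.4% and 42.7% in control.

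Cyp2c29, Cyp2c38 and Cyp2c39 lie at the other side of Cyp2c67. Cyp2c29 (39269405 to 39330713, plus strand), an arachidonic acid epoxygenase that is a classical target of CAR, had 813.7 and 892.0 CPM in extract livers, against 1114 and 1048 CPM in control livers. Both extract libraries were lower, and the log2 fold change of -0.34 (SE 0.15) had an edgeR adjusted p of 0.223. The span of Cyp2c29 given here is that of GENCODE, and the stretch shown above, taken before the RefSeq start, lies inside it. The pseudogene Cyp2c53-ps overlaps the start of Cyp2c29 on the same strand in GENCODE, where reads of the pair cannot be told apart. Along the annotated Cyp2c29 transcript, 1.96% of 50-base windows were shared with Cyp2c53-ps and 97.9% were found in no other gene. At 100 bases, 100% were found in no other gene. Cyp2c39 (39510862 to 39568529, plus strand), which hydroxylates retinoic acid, was the scarcest member per kb, with 8.51 and 9.34 CPM in extract livers, against 13.5 and 11.9 CPM in control livers. The libraries did not overlap, with a log2 fold change of -0.51 (SE 0.19, edgeR adjusted p = 0.156, and 0.0280 without control replicate 2). Cyp2c38 (39389556 to 39463075, minus strand) had 71.8 and 89.6 CPM in extract livers, against 67.8 and 81.3 CPM in control livers. These overlapped, with a log2 fold change of 0.11 (SE 0.17, edgeR adjusted p = 0.750). In RefSeq, the Cyp2c39 gene model spans Cyp2c38 on the other strand, and no strand setting is given in the sources used here.

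Cyp2c70 (40153353 to 40187333, minus strand) makes muricholic acids, the bile acids that set mouse bile apart from human bile. It had 954.4 and 1049 CPM in extract livers, against 787.3 and 1102 CPM in control livers. The extract libraries lay inside the control range, with a log2 fold change of 0.08 (SE 0.20, edgeR adjusted p = 0.851). All of its transcript windows from 50 to 150 bases were found in no other gene.

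Of 23 other genes of bile acid handling tested, 2 were higher and 3 lower (4.91% and 3.63% of all genes tested were), 18 did not pass, and the median log2 fold change was -0.12. The 12-alpha-hydroxylase Cyp8b1 fell by 4.28 on the log2 scale (edgeR adjusted p = 0.000292), and the synthesis enzyme Hsd3b7 fell by 1.37 (edgeR adjusted p = 0.0187). The export pump Abcc4 rose by 3.23 (edgeR adjusted p = 0.00509). The call of Hsd3b7 was lost without either extract library.

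**Figure D4:**
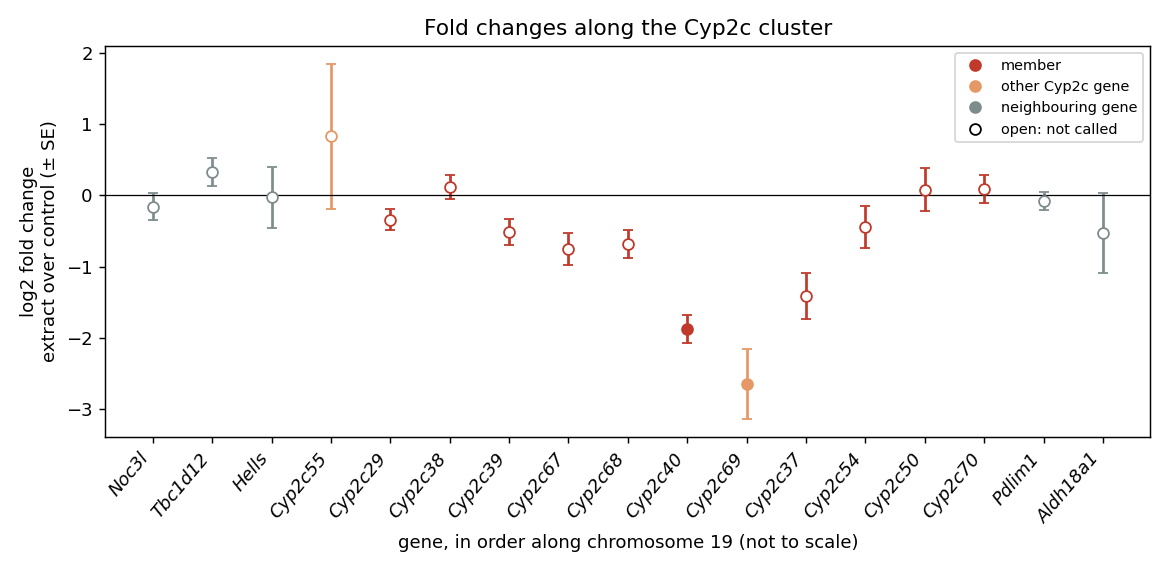
Log2 fold change of extract over control (vertical axis, bars are standard errors) for the tested genes of the cluster and 5 genes beside it, in order along chromosome 19. Filled points passed an adjusted p of 0.05. Cyp2c40 at -1.87 and its neighbour Cyp2c69 at -2.65 are the filled points, and the 5 flanking genes lie between -0.53 and 0.32.

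Of the genes around the cluster, 5 are given for comparison, which is not the full set taken. The 3 nearest tested genes before it, Noc3l, Tbc1d12 and Hells, had log2 fold changes of -0.16, 0.32 and -0.03. Pdlim1 and Aldh18a1, on the other side, had -0.08 and -0.53. Each of these 5 missed the threshold in edgeR's test. Along the cluster the most negative values stood together in the middle, at Cyp2c40, Cyp2c69 and Cyp2c37, with Cyp2c38 at one side and Cyp2c50 and Cyp2c70 at the other near 0.

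Of the Cyp2c genes outside the 10, Cyp2c23, which lies away from the cluster and encodes an epoxygenase, had 273.9 and 324.7 CPM in extract livers, against 429.3 and 373.3 CPM in control livers. It did not overlap between groups and missed the threshold (log2 fold change -0.42, SE 0.16, edgeR adjusted p = 0.168, and 0.0134 without control replicate 2). Cyp2c55 had 24.2 and 29.7 CPM in extract livers, against 26.5 and 3.64 CPM in control livers, so its control libraries differed 7.28-fold (log2 fold change 0.83, SE 1.02, edgeR adjusted p = 0.712). Its log2 fold change was 2.89 without control replicate 1 (edgeR adjusted p = 1.03e-22) and 0.03 without control replicate 2 (edgeR adjusted p = 0.929). Cyp2c66 had 0 counts in every library, and Cyp2c65 had 1 count in 1 control library.

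Summed, the 10 genes came to 4059 and 4585 CPM in extract livers, against 5037 and 7146 CPM in control livers. The groups did not overlap, but the control libraries lay farther apart (6092 ± 1491 CPM, SD, n = 2) than the extract libraries (4322 ± 371.8 CPM, SD, n = 2). The log2 ratio of the means was -0.50, and -0.69 with all 15 Cyp2c genes. In raw counts the 10 genes took 0.438% and 0.477% of gene counts in extract livers, against 0.486% and 0.659% in control livers.

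For Cyp2c40 and Cyp2c70, as for several other members, shares of this total lay closer between the control libraries than levels did. Cyp2c67, for example, took 5.17% and 5.37% in control livers, where its level differed 1.47-fold. Cyp2c29 and Cyp2c39 went the other way. They took 22.1% and 14.7%, and 0.268% and 0.167%, in control livers, where their levels differed 1.06-fold and 1.13-fold. Cyp2c40 took 5.96% (95% Clopper-Pearson interval 5.84 to 6.07) and 6.02% (5.92 to 6.12) in extract livers, against 15.9% and 15.3% (15.1 to 15.4 for the second) in control livers. These intervals cover counting error only. Cyp2c70 took 23.5% and 22.9% in extract livers, against 15.6% and 15.4% in control livers, a difference of 7.67 percentage points. Cyp2c50 took 21.1% and 20.1% in extract livers, against 11.5% and 15.5% in control livers, 7.11 points more in extract.

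Of the other members, Cyp2c37 took 5.68% and 6.35% in extract livers, against 9.53% and 12.8% in control livers. Cyp2c38, Cyp2c67 and Cyp2c68 also had shares that did not overlap, higher in extract for Cyp2c38 and lower for the other two. The lower shares of Cyp2c67 and Cyp2c68 depended on the total used. With all 15 Cyp2c genes in the total, both overlapped, at -0.20 and -0.15 percentage points, and per unique 50-base window both overlapped, at -0.08 and 0.30 points. Within their group of close copies both took a larger share in extract, by 7.23 and 17.9 points. Shares of Cyp2c29, Cyp2c39 and Cyp2c54 overlapped. Each non-overlapping share had an exact two-sided permutation p of 0.333, the smallest possible here. Shares of a total are not independent, so a lower share of Cyp2c40 raises the others. Counted per 50-base window particular to each gene, Cyp2c40 took 14.8% of the total on average in extract livers, against 32.7% in control livers.

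**Figure D5:**
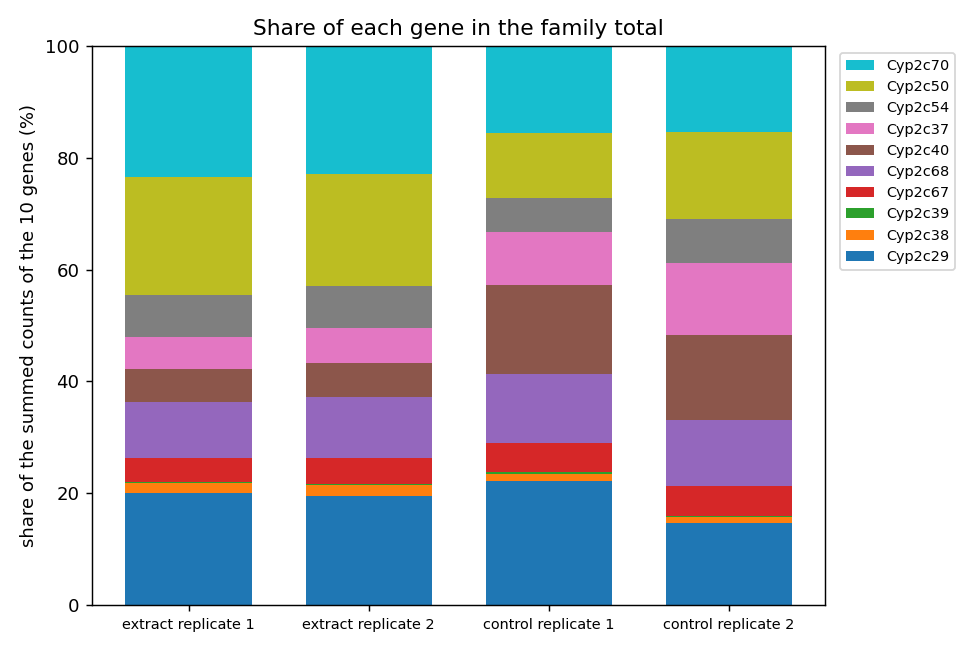
Share of each gene in the summed counts of the 10 genes, in percent, stacked for each library with the extract libraries left of the control libraries. Cyp2c40 takes 5.96% and 6.02% in extract and 15.9% and 15.3% in control, and Cyp2c70 takes 23.5% and 22.9% in extract and 15.6% and 15.4% in control.

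Per kb of annotated transcript, the order of the genes in extract livers was Cyp2c70 (583.4 CPM per kb), Cyp2c50 (491.0), Cyp2c29 (478.3), Cyp2c68 (264.0), Cyp2c54 (180.1), Cyp2c40 (143.5), Cyp2c37 (143.0), Cyp2c67 (110.6), Cyp2c38 (28.1) and Cyp2c39 (4.91). Only Cyp2c50 and Cyp2c29, and Cyp2c40 and Cyp2c37, overlapped as neighbours in that order. In control livers it was Cyp2c29 (606.1 CPM per kb), Cyp2c70 (550.3), Cyp2c40 (524.4), Cyp2c50 (465.6), Cyp2c68 (424.6), Cyp2c37 (382.2), Cyp2c54 (245.7), Cyp2c67 (185.8), Cyp2c38 (26.0) and Cyp2c39 (7.01). There neighbours among the first 8 overlapped, and Cyp2c38 and Cyp2c39 stood below them and apart from each other. By this measure Cyp2c40 came after 5 other members in extract livers and after 2 in control livers, an order that depends on how its shared sequence is treated. Per 50-base window found in no other gene, it came after 2 members in extract livers (14.8% of the total, with Cyp2c50 at 20.4% and Cyp2c70 at 16.8%). In control livers it was then first, at 32.7%, with Cyp2c68 next at 13.1%. Per 100-base window it came after 4 members in extract livers, at 9.46%, and was first in control livers, at 23.1%.

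The regulators and partners of these enzymes gave mixed values. Of 20 listed regulators tested, 2 were higher and 2 lower (median log2 fold change -0.15). The growth hormone receptor Ghr fell by 0.88 on the log2 scale (edgeR adjusted p = 0.0140), as did its effector Stat5b, by 0.79 (edgeR adjusted p = 0.0318). Cebpb, a liver transcription factor, rose by 0.90 (edgeR adjusted p = 0.0120), and the aryl hydrocarbon receptor Ahr by 0.69 (edgeR adjusted p = 0.0399). All 4 calls were lost without either extract library. Hnf4a had 602.0 and 652.6 CPM in extract livers, against 864.7 and 790.9 CPM in control livers (log2 fold change -0.40, edgeR adjusted p = 0.158). Nr1i3 (-0.05, edgeR adjusted p = 0.962) and Nr1i2 (0.39, edgeR adjusted p = 0.163) did not pass. Without control replicate 2, Hnf4a passed as lower (edgeR adjusted p = 0.0418) and Nr1i2 as higher (edgeR adjusted p = 0.0394), and Nr1i3 passed as lower without control replicate 1 and as higher without control replicate 2.

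Por, which feeds electrons to these enzymes, had 744.1 and 731.6 CPM in extract livers, against 286.3 and 345.1 CPM in control livers. It rose by 1.22 (SE 0.16, edgeR adjusted p = 0.00694). Of 16 genes of electron supply and haem, 2 were higher and 0 lower (median log2 fold change 0.18), the other being biliverdin reductase Blvrb. Of 24 genes listed for fatty acid epoxides and hydroxylated acids, 4 were higher and 3 lower (median 0.07). That list also holds phospholipases and prostaglandin enzymes. Among them, the epoxide hydrolase Ephx1 rose by 2.45 (edgeR adjusted p = 0.000651), the prostaglandin synthase Ptgs1 fell by 1.65 (edgeR adjusted p = 0.00798) and the epoxygenase Cyp2j5 fell by 0.84 (edgeR adjusted p = 0.0257). Of 31 other drug-metabolising P450 genes, 5 were higher and 3 lower (median 0.14), with Cyp2a5 up by 2.62 (edgeR adjusted p = 0.00114) and Cyp2b13 (edgeR adjusted p = 0.00168) down to 13.5 and 22.9 CPM in extract livers, against 179.6 and 195.5 CPM in control livers. The calls of Blvrb and Cyp2j5 were lost without either extract library.

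Cyp2c40 and Cyp2c69 are known to be more abundant in female than in male mouse liver. Y-linked genes Ddx3y, Eif2s3y, Uty and Kdm5d had 0 counts in all 4 libraries, and Xist had 775.4 and 981.9 CPM in extract livers, against 754.1 and 1073 CPM in control livers. In lists added after the values were seen, 1 of 13 female-biased genes outside Cyp2c was higher and 5 lower (median log2 fold change -2.33). Of 11 male-biased genes, 3 were higher and 2 lower (median -0.78). Both medians are values of single genes that overlapped between groups and were high in control replicate 2 only. Cyp3a44 had 29.8 and 19.2 CPM in extract livers, against 13.3 and 233.6 CPM in control livers. Slco1a1 had 130.9 and 119.9 CPM in extract livers, against 89.0 and 341.0 CPM in control livers. The female-biased sulfotransferase Sult2a1 fell by 6.16 (edgeR adjusted p = 0.000292), and the male-biased Mup20 rose by 3.25 (edgeR adjusted p = 0.000292). Against these directions, the female-biased Cyp2a4 rose by 1.30 (edgeR adjusted p = 0.00509). The male-biased Selenbp2 fell by 1.27 (edgeR adjusted p = 0.00514) and C6 by 1.32 (edgeR adjusted p = 0.0137). Cyp2a4, Cyp2a5, Cyp2b13, Sult2a1 and Mup20 also belong to families of close copies, so their counts are less certain. The part of these differences in the change of Cyp2c40 was not tested.

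Cell type markers also moved between the groups. Of 19 hepatocyte markers tested, 0 were higher and 6 lower (median log2 fold change -0.52), with a summed level of 137973 and 144801 CPM in extract livers, against 206197 and 211712 CPM in control livers. None of these markers was at 0. Of 20 pericentral markers, from the zone where many P450 enzymes are made, 1 was higher and 1 lower (median -0.13), and their summed level was 8808 and 10305 CPM in extract livers, against 9444 and 15057 CPM in control livers. Of 20 periportal markers, 0 were higher and 5 lower (median -0.55). Of 14 Kupffer cell markers 13 were lower (median -2.77), with a summed level of 172.9 and 202.8 CPM in extract livers, against 1052 and 828.7 CPM in control livers. Of 12 sinusoidal endothelial markers 7 were lower (median -1.02), and of 12 vascular endothelial markers 6 were higher and 1 lower (median 0.60). No marker of T, NK and B cells passed, of 12 tested (median -2.27). Their summed level was 3.59 and 5.14 CPM in extract livers, against 31.4 and 7.27 CPM in control livers, so control replicate 1 stood apart. Of 13 stellate cell and fibroblast markers 1 was lower (median -0.03). Of 8 cholangiocyte markers 1 was higher and 1 lower (median 0.73), of 7 neutrophil and monocyte markers 1 was lower (median -0.74), and of 2 intestinal markers tested none passed (median -0.83), with Cdx2, Sis and Muc2 at 0 in every library. The part of these shifts in the Cyp2c levels was not tested.

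Over the 4 libraries, the genes outside Cyp2c whose level most resembled the summed level of the 10 were Timm21, Zfp691, Vwa8, Dnmbp and Mbl1, out of 9672 genes of at least 5 CPM. The root-mean-square difference, on log2(CPM + 1) values centred on each gene's own mean, ranged from 0.031 for Timm21 to 0.037 for Mbl1.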

How the data were processed

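The authors deposited raw counts per gene symbol for each library, as whole numbers with no normalization. CASAVA 1.8, HISAT2 2.1.0, HTSeq and the mm10 build appear as tools and build, with no role or order, per the submitters' processing notes. No source used here gives the annotation, strand setting or read length. The 5 rows of each file that name no gene, 16.5% and 17.4% of records in extract libraries and 17.2% and 22.0% in control libraries, stayed out of library sizes and tests. The members and gene lists were chosen with earlier results of these data known.

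From the deposited counts, edgeR 4.0.16 (R 4.3.3) was fitted to all 4 libraries with filterByExpr, TMM scaling and robust quasi-likelihood F tests, two-sided, with Benjamini-Hochberg adjustment over 13963 genes, at a threshold of 0.05. Standard errors were taken as the size of the log2 fold change divided by the root of F. The coefficient that edgeR calls biological variation was 22.3%, and the labels do not show whether this scatter is biological or technical. CPM are edgeR's TMM-scaled counts per library. One count was worth 0.021 to 0.034 CPM, and a count of 0 allows up to 0.063 to 0.101 CPM (3 counts). Replicates differed by more than sampling noise (chi-square over degrees of freedom 29.1 for the extract pair and 118 for the control pair). The fitting step was first tested on simulated counts with known changes. Alternatives were other scalings, DESeq2 1.42.0, limma-voom (limma 3.58.1), other filters, leaving out each library and a replicate block. Positions, transcript lengths and coding sequences come from GENCODE vM21 on GRCm38, and coding sequences were aligned with Biopython 1.88. Sequences before gene starts come from RefSeq on GRCm38.p6.

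All 10 members are named. The 3 nearest tested genes on each side of the cluster were also taken, of which 1 is not reported here. Of each other list described, up to 3 called genes in each direction with the smallest p and a mean of at least 1 CPM could be named, and Nr1i2, Nr1i3, Hnf4a and Por always. Ephx1, Sult2a1 and the other list genes named follow that rule. The sex-biased lists, Xist and the Y-linked genes were added after values were seen.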

Additional observations from a re-analysis of the deposited data

How the results depend on the processing

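Cyp2c40 was called lower under all 13 alternatives tried, with log2 fold changes from -2.08 to -1.63 and adjusted p from 1.47e-20 to 0.0143. The number of members lower was 1 with edgeR, 2 with upper-quartile scaling, with limma-voom and without the robust step (4.03%, 3.39% and 3.45% of all genes were lower), 3 with no filter on low counts (3.99%) and 4 with DESeq2 (6.58%). Leaving out each library gave 1 to 5 lower, with 5 without either control library, where 9.96% (without replicate 1) and 12.2% (without replicate 2) of all genes were lower, and 0 to 1 higher. The member higher was Cyp2c50 without control replicate 2 (log2 fold change 0.62, edgeR adjusted p = 0.00623), where 12.4% of all genes were higher. Leaving out a library leaves 1 in an arm, which is then assumed to vary like the other group. Hsd3b7, Ghr, Stat5b, Cebpb, Ahr, Blvrb and Cyp2j5, named above, lost their call without extract replicate 1 and again without extract replicate 2. Calls of Cyp2a4, Selenbp2 and C6 with 1 library left out are not given here. Nr1i2, Nr1i3 and Hnf4a passed without control replicate 2. Cyp2c37 was called under 7 of the 13 alternatives, and Cyp2c67 and Cyp2c68 under 5 each. With a replicate block, 4 members were lower, where 4.88% of all genes were. The labels do not say what a replicate number marks. Deviations of same-numbered libraries correlated at 0.157, and 2 pairs cannot show whether the numbers pair the libraries. The block was therefore left out of the main fit and counted only among the 13 alternatives.

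Directions turned for values near 0. With 1 library left out, Cyp2c38 ranged from -0.076 (without extract replicate 2) to 0.25, Cyp2c50 from -0.32 (without control replicate 1) to 0.62, Cyp2c70 from -0.14 (without control replicate 1) to 0.35, Cyp2c54 from -0.83 to 0.069 (without control replicate 2) and Nr1i3 from -0.53 to 0.66 (without control replicate 2). Nr1i3 was also 0.12 with total counts, 0.056 with limma-voom and 0.049 with the replicate block. The cause was not tested. Total counts moved the median of all genes by 0.17 on the log2 scale. The 2 libraries per group and the spread between the control libraries limit these comparisons.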
